A study of Rattus norvegicus with 6 samples.

Results

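Genes that mark the mesenchymal cells of the kidney interstitium, vessels and glomeruli were examined in cystic and normal rat kidneys. They were chosen by name, as 4 genes of the smooth muscle contractile apparatus (Acta2, Tagln, Myh11 and Cnn1), 2 intermediate filament genes (Des and Vim) and 4 genes of mesenchymal surface proteins (Pdgfra, Pdgfrb, Thy1 and Cspg4). These are 10 of the 14217 genes that have a probe set named for them alone on the array. A probe set is a group of short oligonucleotides that together read 1 transcript, and each gene was represented by its brightest one over the 6 arrays. The samples were 3 of Cy/+ and 3 of +/+ kidney from male Han:SPRD rats, with an array for each. Cy/+ rats carry 1 mutant allele of Anks6 and develop slowly progressing polycystic kidney disease, +/+ rats carry the wild-type alleles, and none of the 6 labels gives a treatment. The labels give an age of 10 weeks for all 6 samples, whereas the study's methods give a younger age for the arrays. Whether the samples of a genotype are different animals is not stated, and the p-values then refer only to how far these samples scatter, part of which may be technical. Each array measured bulk kidney RNA, so that more cells of a type and more RNA per cell cannot be told apart.

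Pericytes wrap capillaries and, with resident fibroblasts, are held to be the main source of myofibroblasts, the contractile, matrix-secreting cells of the scarred kidney. PDGF ligands released by epithelial and endothelial cells act on the PDGF receptors alpha and beta of these cells, and transforming growth factor beta, through Smad3 and through serum response factor with its cofactors of the myocardin family, switches on the contractile genes. Smooth muscle of the arteries and of the renal pelvis carries the same contractile proteins in the normal kidney, and mesangial cells carry several of them.

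Signals are linear intensities in arbitrary units and compare arrays for 1 probe set, not 1 gene with another. Their log2 values were tested with limma, and p-values were adjusted by the Benjamini-Hochberg method over the 18625 probe sets whose mean log2 signal reached the 40th percentile, a signal of 77.8. The adjusted p had to lie below 0.05. The genotypes differed across the whole array. Of 10645 genes tested, 66.7% passed, 37.4% as higher and 29.3% as lower in Cy/+ kidneys, and the median log2 fold change was 0.09. The arrays also differed in controls: all Cy/+ arrays exceeded all +/+ arrays in 18 of 18 probe sets for control RNA added at hybridization, by a median of 1.83-fold, and in 24 of 24 probe sets for the poly-A control RNAs, by a median of 3.82-fold. The beta-actin control ratio (signal at the 3′ end over that at the 5′ end), which rises as RNA or labeling is cut short, was 3.22 ± 0.26 in Cy/+ and 1.51 ± 0.0057 in +/+ kidneys (SD, n = 3 each; exact two-sided permutation test on the log2 ratio, p = 0.1, the smallest that 3 arrays against 3 allow). The same ratio for Gapdh was 1.85 ± 0.10 in Cy/+ and 1.18 ± 0.036 in +/+ kidneys. For hexokinase it was 4.455 ± 0.050 in Cy/+ and 3.834 ± 0.053 in +/+ kidneys. The part of these differences in the results below was not tested.

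The 3 Cy/+ arrays differed among themselves in urothelial transcripts. Upk3a, a uroplakin of the urothelium that lines the renal pelvis, had signals of 52.96, 2139 and 331.5 in Cy/+ replicates 1, 2 and 3, against 61.97 to 79.06 in +/+ kidneys. Upk1b and Upk1a, named after their values were seen, had the same pattern, and the summed signal of 5 urothelium markers was 189.3 to 5389 in Cy/+ and 212.4 to 229.0 in +/+ kidneys. The 3 tested were Upk3a, Upk1b and Krt5, which was named after its values were seen, while Upk1a lay below the filter. None of the 3 passed with all arrays. Without Cy/+ replicate 1 all 3 were higher, with Upk3a at a log2 fold change of 3.61 (limma adjusted p = 0.0029). All 3 had +/+ means of 30.05 to 69.35, below the filter. They passed it only through their Cy/+ signals, so that their count carries no support. Urothelial transcripts were thus bright in Cy/+ replicates 2 and 3 and at the +/+ level in Cy/+ replicate 1, which had the highest signal of the Cy/+ arrays for 9 of the 10 genes described here.

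Of the 10 genes, 9 passed the filter on low signals, and of these 7 were higher in Cy/+ kidneys, none was lower and 2 did not pass the test, beside 37.4% higher among all genes tested. The 7 were Tagln, Des, Vim, Pdgfra, Pdgfrb, Thy1 and Cspg4. Apart from Thy1 these changed at least 2-fold, as did 12.6% of all genes tested in that direction, with 9.7% in the other. In 7 genes every Cy/+ array lay above every +/+ array, beside 41.5% of all genes tested, and in none did every Cy/+ array lie below, beside 33.1%. These 7 were Acta2, Tagln, Des, Vim, Pdgfra, Pdgfrb and Cspg4. The median log2 fold change of the 9 genes was 1.19. Acta2 and Myh11 did not pass, and Cnn1 lay below the filter.

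**Figure D1:**
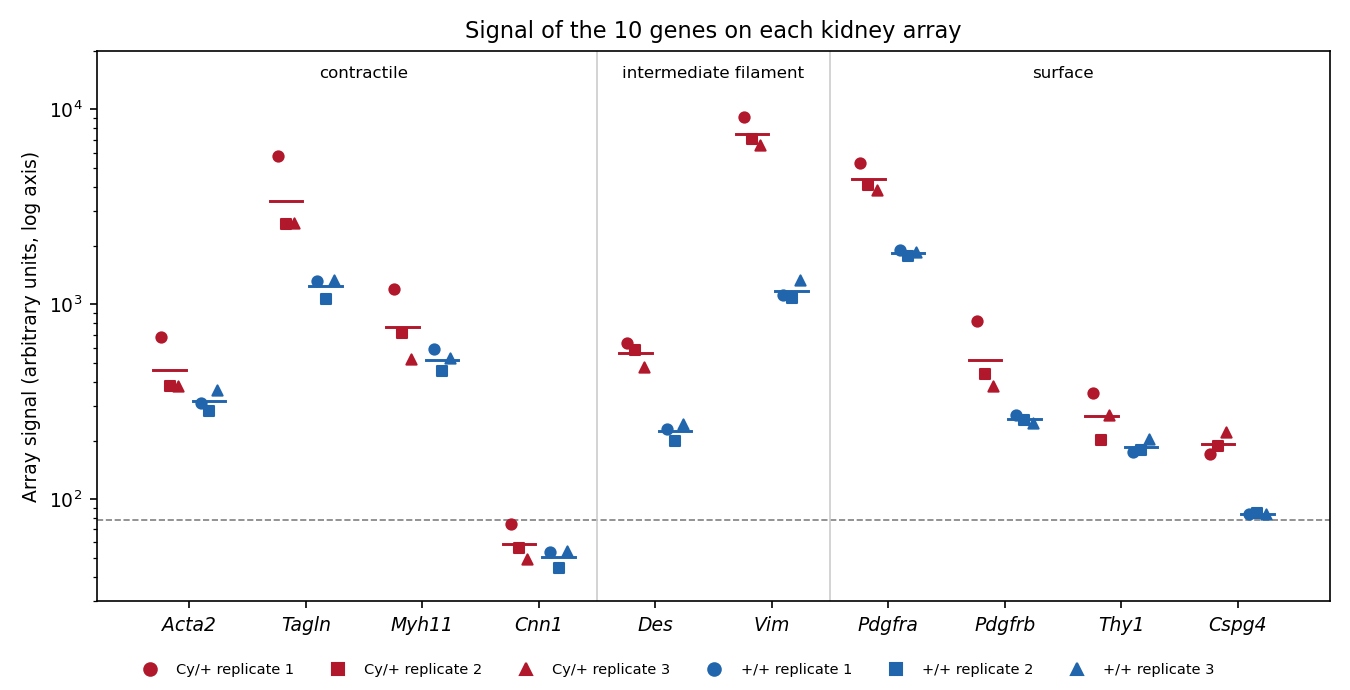
Signal of each of the 10 genes on each array, in arbitrary units on a log axis, with Cy/+ arrays in red left of +/+ arrays in blue, a bar at the geometric mean of each genotype and a dashed line at the filter threshold of 77.8. Vim shows the widest gap between the genotypes, Cnn1 lies below the dashed line on every array, and Cy/+ replicate 1 (red circles) is the highest Cy/+ array for each gene but Cspg4.

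Among the contractile genes only Tagln passed the test. Tagln encodes transgelin, or SM22, an actin-binding protein of smooth muscle. Its signals were 5793, 2570 and 2606 in Cy/+ replicates 1, 2 and 3, against 1315, 1068 and 1340 in +/+ kidneys. The groups lay apart, and Cy/+ replicate 1 was far above the other Cy/+ arrays. The log2 fold change was 1.46 (standard error, SE, 0.31, 95% interval 0.73 to 2.18, limma adjusted p = 0.00468), a 2.74-fold higher signal in Cy/+ kidneys. Without Cy/+ replicate 1 it was 1.07 (adjusted p = 0.000204).

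Acta2 encodes alpha-smooth muscle actin, the protein most often stained to show myofibroblasts. Its probe set had signals of 677.0, 381.0 and 380.3 in Cy/+ kidneys, against 312.8, 283.8 and 365.2 in +/+ kidneys. The groups did not overlap, but Cy/+ replicates 2 and 3 lay only just above the highest +/+ array. The log2 fold change was 0.53 (SE 0.23, 95% interval -0.02 to 1.09, limma adjusted p = 0.0799), so that the interval holds both no change and a 2-fold rise. Without Cy/+ replicate 1 the log2 fold change was 0.26. The annotation gives 5 further probe sets to Acta2 and the cardiac actin gene Actc1 jointly. All were dim, with no genotype mean above 104.0, and below the filter. The brightest of them had signals of 50.04, 71.24 and 54.5 in Cy/+ kidneys, against 102.1, 104.7 and 105.2 in +/+ kidneys, which is opposite to the probe set named for Acta2 alone. In a fit without the filter, 3 of the 5 passed as lower in Cy/+ kidneys (limma adjusted p = 0.00154, 0.00737 and 0.0259).

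Myh11, the gene of smooth muscle myosin heavy chain, had signals of 1194, 716.5 and 523.4 in Cy/+ kidneys, against 588.1, 453.2 and 527.8 in +/+ kidneys. The groups overlapped, since Cy/+ replicate 3 lay below 2 of the +/+ arrays. The log2 fold change was 0.56 (SE 0.28, 95% interval -0.11 to 1.22, limma adjusted p = 0.117), without Cy/+ replicate 1 it was 0.24 (adjusted p = 0.23), and without Cy/+ replicate 3 it was 0.83 and passed (adjusted p = 0.0219). With array weights it was 0.29, and for the mean of both Myh11 probe sets it was 0.065 (adjusted p = 0.786). A second Myh11 probe set was dim, at 25.8 ± 3.89 in Cy/+ and 34.7 ± 4.24 in +/+ kidneys (SD, n = 3 each). Cnn1, which encodes calponin 1, a marker of fully differentiated smooth muscle, had signals of 74.76, 56.41 and 49.16 in Cy/+ kidneys, against 53.37, 44.15 and 54.1 in +/+ kidneys. These overlap and lie below the filter on every array. Cnn1 did not pass in the fit without the filter, so no change of it was shown.

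The promoters of smooth muscle genes carry CArG boxes, the sites that serum response factor binds, in which a core of A and T stands between CC and GG. RefSeq promoter sequence (assembly GRCr8) was at hand for 6 of the 10 genes (Acta2, Cnn1, Des, Vim, Pdgfra and Cspg4), and the 250 bases before the start were searched, on both strands, for the CArG box and for TATAAA. No promoter of the 6 held a CArG box with a pure A and T core, which 1.5% of 33469 rat promoters did. Acta2 alone held boxes with at most 1 G or C in the core, as did 8.08% of all promoters, and Vim alone held TATAAA, as did 12.9%. The stretches are shown because Acta2 is the usual marker of myofibroblasts and Vim the gene that differed most. Capitals mark the CArG-like boxes of Acta2 (134 to 125 and 84 to 75 bases before the start). They also mark the TATAAA of Vim (82 to 77 bases before the start). The Acta2 stretch lies at chr1:241172568-241172647 on the minus strand and the Vim stretch at chr17:81577149-81577208 on the plus strand. A match is a stretch of letters and was not tested for binding.
Acta2: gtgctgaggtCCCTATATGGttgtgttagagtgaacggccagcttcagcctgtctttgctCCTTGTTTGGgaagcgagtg
Vim: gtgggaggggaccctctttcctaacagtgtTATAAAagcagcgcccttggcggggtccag

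Both intermediate filament genes were higher in Cy/+ kidneys. Vim encodes vimentin, the filament protein of mesenchymal cells, which endothelial cells, leukocytes, podocytes and injured tubules carry too. Its signals were 9115, 7044 and 6543 in Cy/+ kidneys, against 1121, 1080 and 1326 in +/+ kidneys. The lowest Cy/+ array was far above the highest +/+ array. The log2 fold change was 2.68 (SE 0.14, 95% interval 2.34 to 3.02, limma adjusted p = 2.47e-05), or 6.40-fold, and 99.0% of the genes tested had a lower one. Des encodes desmin, the filament protein of muscle, which pericytes and rat mesangial cells carry and rat podocytes gain on injury. Its signals were 633.6, 584.8 and 476.9 in Cy/+ kidneys, against 230.6, 199.8 and 244.3 in +/+ kidneys. The 3 Cy/+ arrays lay close together and clear of the +/+ arrays, with a log2 fold change of 1.32 (SE 0.14, 95% interval 1.00 to 1.64, limma adjusted p = 0.000173), or 2.50-fold.

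The 4 surface genes passed the test as higher in Cy/+ kidneys, although the call of Thy1 was marginal. Pdgfra encodes the PDGF receptor alpha of fibroblasts. Its signals were 5294, 4117 and 3849 in Cy/+ kidneys, against 1896, 1775 and 1857 in +/+ kidneys. The +/+ arrays agreed to within 3.35% (coefficient of variation) and lay well below every Cy/+ array, with a log2 fold change of 1.25 (SE 0.12, 95% interval 0.95 to 1.54, limma adjusted p = 0.000156).

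Pdgfrb encodes the PDGF receptor beta, on which pericytes and mesangial cells depend. Its brightest probe set had signals of 819.4, 438.6 and 381.8 in Cy/+ kidneys, against 272.0, 254.3 and 246.8 in +/+ kidneys. The groups lay apart, with Cy/+ replicate 1 well above the others, and the log2 fold change was 1.00 (SE 0.27, 95% interval 0.37 to 1.63, limma adjusted p = 0.0129). Without Cy/+ replicate 1 it was 0.67 (adjusted p = 0.000943). A second probe set gave 0.92 (limma adjusted p = 0.00316). The third gave 0.27 and did not pass (limma adjusted p = 0.0501), with signals of 228.3, 204.7 and 200.6 in Cy/+ kidneys, against 170.3, 165.8 and 190.3 in +/+ kidneys. All 3 probe sets thus had each Cy/+ array above each +/+ array, with sizes of change that differed.

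Cspg4 encodes NG2, a proteoglycan on the surface of pericytes. It was dim, with signals of 169.8, 188.0 and 220.1 in Cy/+ kidneys, against 84.2, 84.74 and 83.82 in +/+ kidneys, where it lay just above the filter. It was the gene for which Cy/+ replicate 1 was the lowest Cy/+ array. The log2 fold change was 1.19 (SE 0.12, 95% interval 0.91 to 1.46, limma adjusted p = 0.00014).

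Thy1 encodes a small surface glycoprotein of fibroblasts and neurons that, in the rat, also marks mesangial cells and thymocytes. Its brightest probe set had signals of 352.1, 201.4 and 270.8 in Cy/+ kidneys, against 174.0, 178.2 and 204.8 in +/+ kidneys. The groups overlapped, since Cy/+ replicate 2 lay below +/+ replicate 3. The log2 fold change was 0.53 (SE 0.20, 95% interval 0.06 to 1.00, limma adjusted p = 0.0476). The call was lost without Cy/+ replicate 1 or 3 or any of the +/+ arrays (adjusted p from 0.0711 to 0.132, with a log2 fold change of 0.33 without Cy/+ replicate 1), and with arrays centred on the median or quantile normalization. A second, dimmer Thy1 probe set, below the filter, lay the other way, with 73.2, 58.66 and 48.7 in Cy/+ kidneys, against 84.11, 80.77 and 79.41 in +/+ kidneys.

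**Figure D2:**
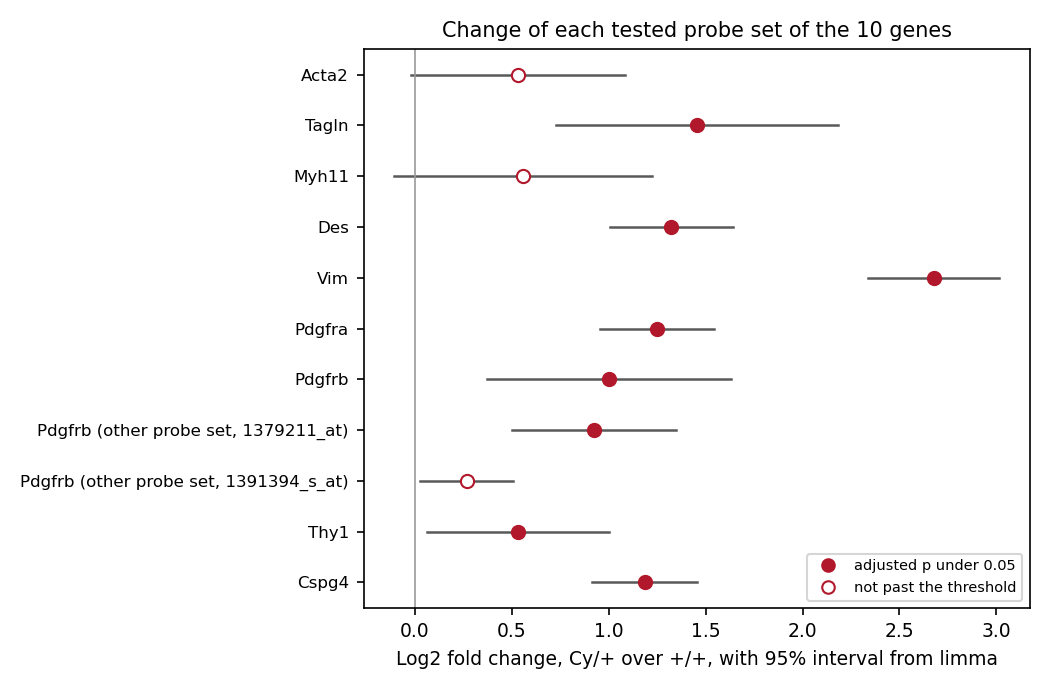
Log2 fold change, Cy/+ over +/+, of each probe set named for 1 of the genes that was tested, with the 95% interval from limma and filled points where the adjusted p lay below 0.05. Vim stands apart at 2.68, the intervals of Acta2 and Myh11 cross 0, and the 3 Pdgfrb probe sets run from 0.27 to 1.00.

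Set side by side, 1 of the 3 contractile genes tested was higher, at a median log2 fold change of 0.56, and 4 of the 4 surface genes were higher, with a median of 1.09. Among all genes tested, 37.4% were higher, a share near that of the contractile genes. The ranges overlapped, at 0.53 to 1.46 for the contractile genes and 0.53 to 1.25 for the surface genes. Tagln changed more than any surface gene, and Thy1 as little as Acta2 and Myh11. Whether the 2 groups of genes differ was not tested, since they were chosen with earlier results of these arrays known. The coefficient of variation over Cy/+ arrays was 35.7% for Acta2, 50.6% for Tagln and 42.6% for Myh11, against 12.1% to 12.9% over +/+ arrays. It was 13.2% for Cspg4, 14.2% for Des, 17.4% for Pdgfra, 18.0% for Vim, 27.4% for Thy1 and 43.5% for Pdgfrb over Cy/+ arrays, so that the range of the surface genes overlapped that of the contractile genes.

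Much of the spread of the contractile genes lay in 1 array. Relative to the mean log2 signal of the other Cy/+ arrays, Cy/+ replicate 1 was higher by 0.83 for Acta2, 1.16 for Tagln, 0.96 for Myh11 and 1.00 for Pdgfrb, but by 0.26 for Des, 0.41 for Pdgfra and 0.43 for Vim, and it was lower for Cspg4 (-0.26). The median of this difference over all genes tested was 0.02, and Cy/+ replicate 1 was the highest Cy/+ array for 41.5% of them. The same array was the highest for 10 of 11 other pericyte genes and 9 of 10 fibroblast and matrix genes, for 8 of 9 leukocyte and macrophage markers and 5 of 5 podocyte markers, and for 0 of 6 T cell markers.

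**Figure D3:**
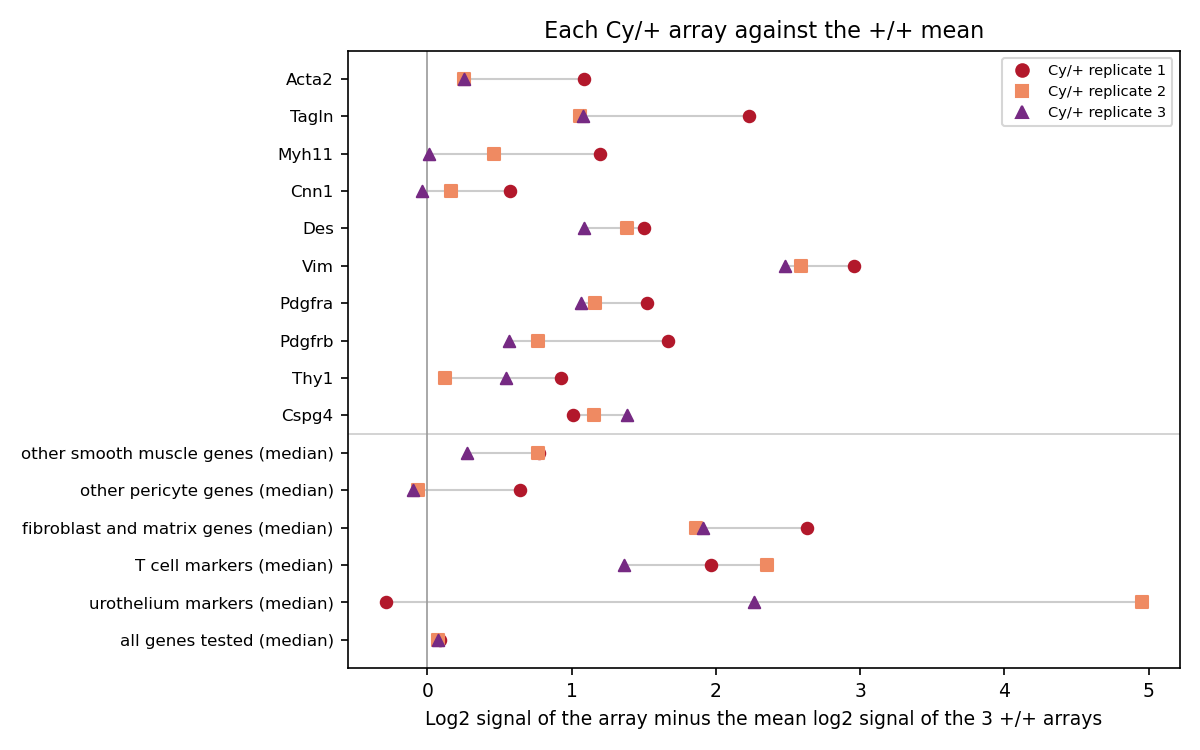
Log2 signal of each Cy/+ array minus the mean log2 signal of the 3 +/+ arrays, for each of the 10 genes and, below the line, as the median over the tested genes of 5 lists and over all genes tested. Cy/+ replicate 1 (circles) lies well to the right for Acta2, Tagln, Myh11 and Pdgfrb and left of 0 for the urothelium markers, while the medians of all genes tested lie close together at 0.07 to 0.09.

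The ligands of the PDGF receptors moved in opposite directions. Pdgfa, which encodes the ligand of receptor alpha, had signals of 454.4, 545.6 and 511.6 in Cy/+ kidneys, against 140.5, 154.1 and 215.7 in +/+ kidneys. It was higher in Cy/+ kidneys, by 1.59 on the log2 scale (SE 0.17, limma adjusted p = 0.000211). Pdgfc, which also encodes a ligand of receptor alpha, had signals of 92.71, 85.37 and 89.28 in Cy/+ kidneys, against 270.0, 214.1 and 200.6 in +/+ kidneys. It was lower in Cy/+ kidneys, at a log2 fold change of -1.35 (SE 0.13, limma adjusted p = 0.000135). In both cases the groups lay apart by a wide margin. Pdgfd, whose product acts on receptor beta, lay below the filter in both genotypes, and Pdgfb, without a probe set of its own, was not analysed here.

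Of 16 other genes of the smooth muscle and actin apparatus, 13 were tested, of which 8 were higher, none was lower and 5 did not pass, and the list had a median log2 fold change of 0.58. Among all genes tested, 37.4% were higher and 29.3% lower. The largest changes in the list were of genes that many cells besides muscle use. Cnn2, which encodes the calponin of non-muscle cells, had a log2 fold change of 2.35 (limma adjusted p = 6.83e-05), Tpm1, which encodes a tropomyosin, 2.11 and Flna, which encodes the actin crosslinker filamin A, 2.07. Of the 3 other Tpm1 probe sets tested, 2 gave 1.41 and 2.97 and the third gave 0.21. The brightest genes that did not pass were Cnn3, which encodes a further calponin, with a log2 fold change of -0.14 (limma adjusted p = 0.491), and Mylk, which encodes myosin light chain kinase, with 0.28 (limma adjusted p = 0.18). Without Cy/+ replicate 1 Cnn3 was lower (-0.34, limma adjusted p = 0.00483), and without Cy/+ replicate 2 Mylk was higher (0.43, limma adjusted p = 0.0487). Myl9, which encodes a myosin light chain and is named after its values were seen, was higher with all arrays (0.47) but not without Cy/+ replicate 1 or 2 or +/+ replicate 1 or 2. The smooth muscle genes Lmod1 and Actg2, named after their values were seen, lay below the filter, at means of 48.2 and 39.0 in Cy/+ kidneys and of 49.1 and 35.1 in +/+ kidneys.

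Of 10 regulators of contractile genes, 7 were tested, of which 5 were higher, none was lower and 2 did not pass, and the list had a median log2 fold change of 0.63. The share higher among all genes tested was 37.4%. Tgfb1, which encodes transforming growth factor beta 1, had signals of 809.1, 601.1 and 596.5 in Cy/+ kidneys, against 235.3, 208.0 and 272.0 in +/+ kidneys (log2 fold change 1.48, limma adjusted p = 0.000195). Smad3, the signal transducer, rose by 0.87 and Mrtfa, which encodes a cofactor of serum response factor, by 0.77 on the log2 scale (limma adjusted p = 0.000407 and 0.000293). Tgfbr1, the gene of a receptor of this pathway, had a log2 fold change of 0.37 and Smad2 one of 0.16, and neither passed, although Tgfbr1 was higher without Cy/+ replicate 2 (0.52, limma adjusted p = 0.0371). With the mean of each gene's probe sets, 3 of these genes were higher and 1 was lower. Srf, the gene of serum response factor, named after its values were seen, was higher by its brightest probe set (0.60) and lower by the other (-0.32, limma adjusted p = 0.0438). Myocd, the myocardin gene, lay below the filter in both genotypes.

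Few other genes used to mark pericytes and vascular smooth muscle passed the test, beside 37.4% higher and 29.3% lower among all genes tested. Of 17 listed, 11 were tested, of which 2 were higher, none was lower and 9 did not pass, and the list had a median log2 fold change of -0.02. The 2 were Gucy1a1, which encodes a subunit of soluble guanylate cyclase, at 0.99 (SE 0.28, limma adjusted p = 0.0173), and Cd248, which encodes endosialin, at 0.81 (SE 0.10, limma adjusted p = 0.000321). The second tested probe set of Gucy1a1 gave -0.27, that of Cd248 gave -0.41 and was lower (limma adjusted p = 0.0181), and with the mean of each gene's probe sets 0 of these genes were higher. Without Cy/+ replicate 1, 3 of the 11 were higher, with Gucy1a1 at 0.65, and 3 were lower, which were Rgs5 (-0.32), Kcnj8 (-0.54) and Itga8 (-0.81). With all arrays, the second tested probe set of Itga8 gave -0.00 (limma adjusted p = 0.977). Without +/+ replicate 2, Gucy1a1 did not pass (limma adjusted p = 0.0601). Gucy1b1, which encodes the partner subunit, had signals of 928.0, 374.1 and 255.6 in Cy/+ kidneys, against 373.7, 287.7 and 369.5 in +/+ kidneys (log2 fold change 0.39, limma adjusted p = 0.448). Its Cy/+ arrays lay on both sides of the +/+ arrays. Mcam, the gene of an adhesion molecule of vessel walls, had a log2 fold change of 0.44 (limma adjusted p = 0.0635) and passed as higher without any 1 of the Cy/+ arrays (limma adjusted p from 0.0388 to 0.0447). The second tested probe set of Mcam lay the other way, at -0.59 (limma adjusted p = 0.0706). Rgs5, a regulator of G protein signaling often used to mark pericytes and named, like Kcnj8 and Itga8, after its values were seen, had signals of 404.4, 207.4 and 236.1 in Cy/+ kidneys, against 289.1, 266.0 and 276.0 in +/+ kidneys (log2 fold change -0.03, 95% interval -0.59 to 0.52).

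Most fibroblast and matrix genes that were tested were higher in Cy/+ kidneys. Of 16 listed, 10 were tested, of which 8 were higher, none was lower and 2 did not pass, and the list had a median log2 fold change of 2.15. Among all genes tested, 37.4% were higher. Tnc, 1 of the 8 and named after its values were seen, had a +/+ mean of 32.9, below the filter. It passed the filter only through its Cy/+ signals and carries no support, but the count of 8 and the median of 2.15 include it. Col1a1, which encodes a chain of type I collagen, had signals of 5346, 3763 and 4053 in Cy/+ kidneys, against 344.7, 226.7 and 264.3 in +/+ kidneys, a log2 fold change of 3.98 (SE 0.19, limma adjusted p = 2.08e-05), and its second probe set gave 2.23. Lox, which encodes the enzyme that crosslinks collagen, had one of 2.46 and Col3a1, a type III collagen gene, one of 2.27 (limma adjusted p = 0.000166 and 0.00041), and the second Lox probe set gave 1.74. Dcn, which encodes the matrix proteoglycan decorin of resident fibroblasts, had signals of 9185, 2541 and 3498 in Cy/+ kidneys, against 2995, 2998 and 3401 in +/+ kidneys. Its high mean in Cy/+ kidneys came from Cy/+ replicate 1, and it did not pass (log2 fold change 0.47, limma adjusted p = 0.35). Tcf21, which encodes a transcription factor of stromal fibroblasts and podocytes, did not pass either (-0.71, limma adjusted p = 0.145), but was lower without Cy/+ replicate 1 (-1.21, limma adjusted p = 0.000183). Ccn2, which encodes a matrix-associated growth factor and is named after its values were seen, was higher with all arrays (1.06) and lost its call without any 1 of the +/+ arrays or Cy/+ replicate 3, and was at 0.65 without Cy/+ replicate 1.

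**Figure D4:**
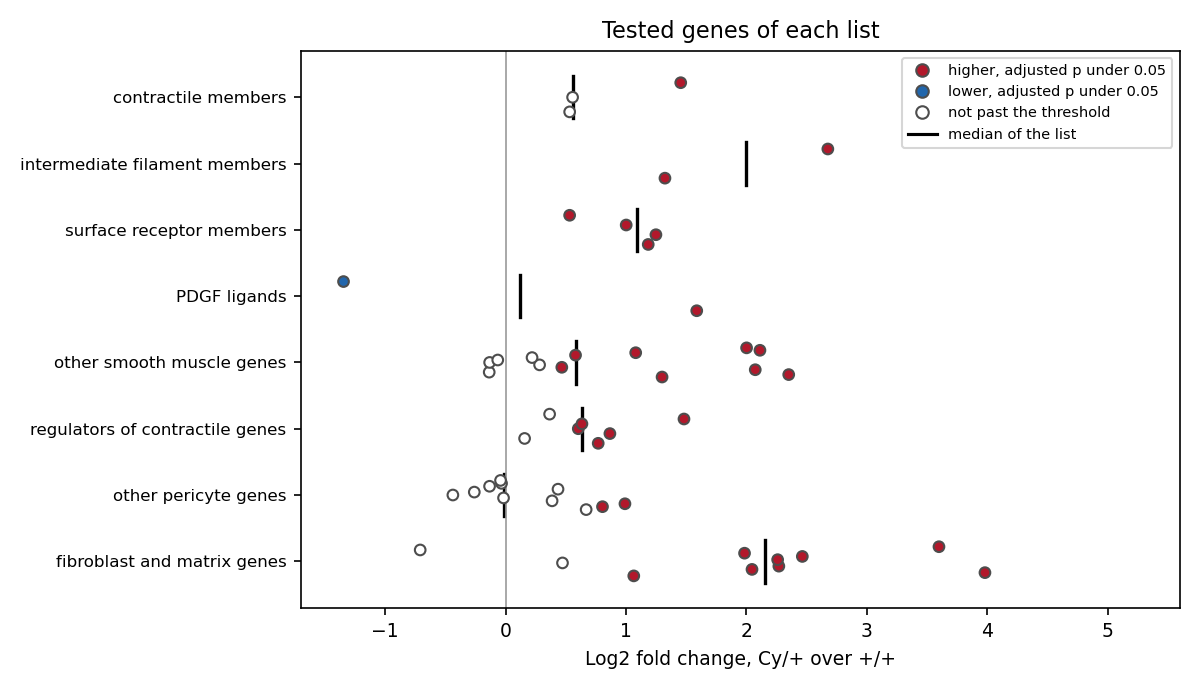
Log2 fold change, Cy/+ over +/+, of each tested gene of 8 lists, red where higher and blue where lower with an adjusted p below 0.05, open where not past the threshold, and a black bar at the median of the list. The other pericyte genes center on -0.02, the fibroblast and matrix genes on 2.15, and the blue point is Pdgfc.

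Markers of other cells that carry some of the 10 genes also differed between the genotypes. Of 9 leukocyte and macrophage markers tested 8 were higher in Cy/+ kidneys, as were 8 of 8 injured tubule markers. The share higher over all genes was 37.4%. All 6 of the T cell markers that passed the filter were higher, but 4 of these (Cd3d, Cd3e, Cd3g and Cd247) had +/+ means of 51.5 to 65.1, below the filter, and passed it only through their Cy/+ signals, so that their count carries no support. Lck, a T cell kinase gene above the filter in both genotypes, had a log2 fold change of 1.68, Laptm5, a lysosomal protein gene of leukocytes, had 2.16, while Cd74, of antigen-presenting cells, had 0.62. The summed signal of the 7 T cell markers with a probe set was 1174 to 2343 in Cy/+ and 461.7 to 539.6 in +/+ kidneys. It includes the 4 named above and Cd5, whose +/+ mean of 37.0 lay below the filter too. The summed signal of the leukocyte and macrophage markers was 25170 to 32260 in Cy/+ and 14060 to 15850 in +/+ kidneys. That of 8 injured tubule markers was 52830 to 55720 in Cy/+ and 6665 to 8326 in +/+ kidneys, with Lcn2, which encodes lipocalin 2, at a log2 fold change of 5.11 and Spp1, the osteopontin gene, at 2.62. Vimentin is carried by all these cells, and their part in the difference of Vim was not tested.

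Endothelial and podocyte markers lay mostly the other way. For the counts that follow, 29.3% of all genes tested were lower in Cy/+ kidneys and 37.4% higher. Of 8 endothelial markers tested, 4 were lower and none higher, or 7 lower without Cy/+ replicate 1, with Vwf, the gene of von Willebrand factor, at -1.94 and Emcn, the endomucin gene, at -1.58, and their summed signal was 4092 to 5648 in Cy/+ and 7763 to 8482 in +/+ kidneys. Of 5 podocyte markers, 4 were lower, among them Ptpro, a receptor phosphatase gene, at -1.38, and 1, Synpo, the gene of the actin-associated protein synaptopodin, was higher at 0.56 (2 other Synpo probe sets gave -0.81 and -1.22), though not without +/+ replicate 2. The summed signal of the 5 was 2679 to 4071 in Cy/+ and 3436 to 3840 in +/+ kidneys. Synpo was the brightest in this sum, at means of 2316 in Cy/+ and 1556 in +/+ kidneys. The other 4 had log2 fold changes of -1.38 to -1.08. All 6 proximal tubule markers were lower, with Miox at -2.88 and Slc22a6, the gene of an organic anion transporter, at -3.42. Their summed signal was 5281 to 15930 in Cy/+ and 57600 to 60770 in +/+ kidneys. Of the 6 striated muscle markers with a probe set, none passed the filter, and the brightest, Myl2, had signals of 115.8, 42.11 and 51.07 in Cy/+ kidneys, against 39.89 to 42.53 in +/+ kidneys. Msln, the mesothelin gene, had signals of 246.4, 1443 and 597.6 in Cy/+ kidneys, against 59.95, 62.58 and 86.58 in +/+ kidneys. Its +/+ mean lay below the filter, which it passed only through its Cy/+ signals. Its call as higher (limma adjusted p = 0.00239) thus carries no support. Msln was brightest on the Cy/+ array with the brightest uroplakins, and the other mesothelium marker tested, Lrrn4, was lower (log2 fold change -0.76). Lrrn4 was named after its value was seen. The share of these cell types in the results for the 10 genes was not tested.

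Over the 6 arrays, the genes whose log2 signals ran most nearly parallel to Acta2 were Dram1, Lrrc32 and Cbfb (Pearson r of 0.991, 0.991 and 0.990), and those most like Pdgfrb were Tenm4, Pla2g15 and Wnt9a (0.999, 0.998 and 0.996). These correlations describe 6 arrays in 2 genotypes, and 115 genes for Acta2 and 399 for Pdgfrb had an r over 0.95. None of the 6 genes is in the lists described here.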

How the data were processed

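Kidney RNA of 3 Cy/+ and 3 +/+ samples was hybridized to rat genome 230 2.0 oligonucleotide arrays. The authors made biotin-labeled cRNA by a one-cycle protocol and read the scans with GCOS, while MAS5 is named in the submitters' processing notes. Each deposited value is a linear signal intensity, with no detection call, and the scaling between arrays is not given in the sources used here. With 3 arrays per genotype, precision is limited by their number.

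Signals (31099 probe sets, 57 of them controls and not tested) were log2-transformed as deposited, with nothing added and no rescaling. Probe sets with a mean log2 signal at or above the 40th percentile (6.28) were tested with limma 3.58.1 (R 4.3.3, a linear model with trended empirical Bayes moderation), Cy/+ over +/+, with no covariate. The fit was tested on simulated arrays with known changes. Far fewer probe sets were changed in these than passed in the data, so they do not check the fit under so wide a difference. Gene symbols are those of the platform annotation, brought up to date by Entrez ID from a RefSeq table of GRCr8 (20764 of 20832 probe sets with 1 symbol). Another 436 have several symbols and name no gene here, and 9831 have none and are unnamed here.

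The members and lists were chosen with earlier results of these data known, so list counts carry no test of their own. Named are all members and PDGF ligands, the 3 genes of largest change past the threshold whose genotype means both reach the filter, and the 2 brightest that did not pass in each pathway list, the brightest and most changed marker of each cell type, and the 3 genes most like Acta2 and Pdgfrb. Genes named beyond this were chosen after their values were seen. Each alternative changed a single choice. The signals were quantile normalized, centred on the array median, floored at the filter or given a pseudocount of 16, the filter was dropped or set at the 60th percentile, and the fit was run untrended, with array weights, with replicate number as a block or as the methods' t-test. Genes were also represented by the average of their probe sets, or without probe sets shared among transcripts, and every array was omitted in turn. The joint Acta2 and Actc1 probe sets and a 2-fold minimum were added after the data were seen.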

Additional observations from a re-analysis of the deposited data

How the results depend on the processing

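The count of genes higher in Cy/+ kidneys was 7 of the 10, and it ranged from 5 with the methods' t-test after Benjamini-Hochberg adjustment to 7, with none lower under any alternative run. Leaving out 1 array at a time gave 6 to 7. Of all 10645 genes tested, 5976 to 7599 then passed in either direction, and 3413 to 4243 passed as higher. Tagln, Des, Vim, Pdgfra and Cspg4 passed under every alternative in which they were tested (Cspg4 was not tested with the filter at the 60th percentile), and Acta2 passed under none of 18 (log2 fold change 0.26 to 0.67, adjusted p from 0.0527 to 0.207). Thy1 lost its call under 10 of 18 alternatives, with a log2 fold change of 0.04 for the mean of its probe sets. Pdgfrb lost its call with the methods' t-test (adjusted p = 0.0654), and Myh11 passed only without Cy/+ replicate 3, with a log2 fold change from 0.065 for the mean of its probe sets (adjusted p = 0.786) to 0.83. With a minimum of 2-fold, 6 of the 10 genes and 2374 of all genes tested passed. The 5 joint probe sets of Acta2 and Actc1, fitted without the filter, gave log2 fold changes of -0.84, -0.16, -0.35, -0.25 and -0.073, opposite in sign to the probe set of Acta2 alone. Of these 3 passed as lower (adjusted p = 0.00154, 0.00737 and 0.0259), and the cause was not tested. The largest shift of the median log2 fold change over all genes among the scalings was -0.07, with arrays centred on the median. Samples share replicate numbers across genotypes, but no source pairs them and the correlations of same-numbered arrays were 0.15, -0.11 and -0.15. With the replicate number as a block, 7 of the genes passed, all as higher. Of all 10645 genes tested, 3750 then passed as higher and 2845 as lower. Mean signals below the filter, as for Cnn1 and the joint probe sets of Acta2 and Actc1, limit what can be said of the dimmest genes.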
